A study of Mus musculus with 6 samples.

Results

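Rab proteins are the largest branch of the Ras-like small GTPases, and their genes were examined here in mouse blood platelets. Members were the 59 of 24346 gene symbols whose name is Rab followed by a number and an optional letter, so Rab-interacting and Rab-like genes were not members. Of these, 35 had a mean of at least 1 FPKM (fragments per kilobase of transcript, scaled to library size, a level already set relative to transcript length) over the 6 libraries, and 24 fell below that level. Platelets of mice homozygous for the β3(R734C) knock-in, which alters 1 residue in the cytoplasmic tail of integrin β3, gave 3 libraries, and platelets of wild-type mice gave the other 3. The labels do not give the mice's strain, age or sex, the number of animals behind a library, or how the knock-in allele was made, and no treatment is named. The comparison asks which platelet mRNAs differ between the genotypes in a mouse with few and large platelets. Nothing in the labels says that replicates came from separate animals, so p-values measure only the spread between these libraries.

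Rab proteins switch between a GDP-bound form held in the cytosol and a GTP-bound form on a membrane, where they recruit effectors such as motors, tethers and fusion factors. Exchange factors (GEFs) switch them on, GTPase-activating proteins (GAPs) switch them off, and lipid groups added to their C-terminus anchor them. Each Rab marks particular membranes, from the endoplasmic reticulum and Golgi through endosomes to secretory granules. Platelets are anucleate fragments of megakaryocytes and depend on Rab proteins to build and release their alpha granules and dense granules. Rab27b is known for dense granule secretion in mouse platelets, and Rab32 and Rab38 for cargo delivery to lysosome-related organelles, the class that holds dense granules and melanosomes.

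The codons of the nucleotide-binding loop are shown for the Rab genes that changed and for the closest relatives of Rab32 and Rab11a, because this stretch holds the contact with the phosphates of GTP that all of them share. They were read from GENCODE M21 coding sequences (GRCm38), with the loop, found by its conserved glycines and lysine in the translated frame, in capitals.
Rab32: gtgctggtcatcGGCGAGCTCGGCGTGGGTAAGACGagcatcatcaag
Rab38: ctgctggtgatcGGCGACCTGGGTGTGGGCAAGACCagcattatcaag
Rab37: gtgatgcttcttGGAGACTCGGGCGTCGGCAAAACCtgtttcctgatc
Rab2a: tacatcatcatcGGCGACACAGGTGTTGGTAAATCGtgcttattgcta
Rab22a: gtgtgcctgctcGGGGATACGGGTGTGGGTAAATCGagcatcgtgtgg
Rab11a: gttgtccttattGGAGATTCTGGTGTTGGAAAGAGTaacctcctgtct
Rab11b: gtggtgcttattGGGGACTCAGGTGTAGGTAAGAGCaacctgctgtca
Over these 48 bases Rab32 differed from Rab38 at 8, from Rab22a at 18, from Rab37 at 21, from Rab2a at 22 and from Rab11a at 23. Across whole coding regions the longest stretch identical between relatives was 14 bases for Rab32 and Rab38, 14 for Rab11a and Rab11b, 26 for Rab2a and Rab2b, 11 for Rab22a and Rab31, and 17 for Rab26 and Rab37. The longest of the 23 pairs compared was 38 bases, between Rab1 and Rab1b. How fragments from shared stretches were assigned is not given in the sources used here.

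The promoters of Rab32, Rab11a and Rab22a are shown because these genes differed between the genotypes, Rab11a in the opposite direction to the others. They are the 250 bases before the annotated start in RefSeq (GRCm38.p6), read along the gene, and capitals mark GATAA (the core of GATA factor sites, either strand, so TTATC as well) and CCGGAA (the core of ETS factor sites, either strand, so TTCCGG as well).
Rab32, chr10:10558208-10558457, minus strand: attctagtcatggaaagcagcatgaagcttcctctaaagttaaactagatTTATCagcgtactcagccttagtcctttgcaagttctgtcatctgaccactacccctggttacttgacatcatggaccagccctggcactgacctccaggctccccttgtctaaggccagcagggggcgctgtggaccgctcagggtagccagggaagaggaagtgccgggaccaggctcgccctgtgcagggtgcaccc
Rab11a, chr9:64737757-64738006, minus strand: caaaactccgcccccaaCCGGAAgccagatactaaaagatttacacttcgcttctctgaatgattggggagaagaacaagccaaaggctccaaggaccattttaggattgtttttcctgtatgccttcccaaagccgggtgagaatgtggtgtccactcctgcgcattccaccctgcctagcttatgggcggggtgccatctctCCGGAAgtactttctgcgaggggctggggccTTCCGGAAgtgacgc
Rab22a, chr2:173659595-173659844, plus strand: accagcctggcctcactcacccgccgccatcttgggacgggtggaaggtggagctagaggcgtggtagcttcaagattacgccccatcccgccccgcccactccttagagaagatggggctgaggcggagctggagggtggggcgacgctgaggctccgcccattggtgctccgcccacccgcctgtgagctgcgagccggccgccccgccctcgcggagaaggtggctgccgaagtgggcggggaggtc
Rab32 held 1 GATAA match and no CCGGAA, Rab11a held 4 CCGGAA matches, of which 1 overlaps another on the opposite strand, and Rab22a held neither. Over the promoters in the table, 22.6% held GATAA and 12.03% CCGGAA. Of 33 promoters of tested Rab genes 10 held GATAA and 7 CCGGAA, and of 27 promoters of the other Rab genes 2 and 1 did. These are counts of letters in a window, not binding sites. The gene spans given below are from GENCODE M21, whose starts for Rab32, Rab11a and Rab22a lie inside these windows. Part of each printed stretch is therefore within the GENCODE gene. Promoters were found for 48 of the 59 members, and Rab2a and Rab37 were among those without an entry.

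Platelet marker mRNA was abundant in every library, but the share of RNA that came from platelets was not measured. The 5 platelet markers, Itga2b, Pf4, Ppbp, Gp9 and Tubb1, summed to 42616 to 47449 FPKM in knock-in libraries and 45683 to 47491 FPKM in wild-type libraries. Neutrophil markers summed to at most 1.56 FPKM in the knock-in and 2.19 FPKM in the wild type. B cell markers summed to at most 0.693 FPKM in the knock-in and 0.185 FPKM in the wild type. Only 4 of 6 B cell, 6 of 7 T and NK cell and 10 of 12 erythroid markers were among the symbols. The sums of these lists cover those genes alone. T and NK cell markers summed to 4.95 to 8.83 FPKM in the knock-in and 2.67 to 4.42 FPKM in the wild type, with Cd3d, Cd3e and Klrb1c listed at 0 throughout. The monocyte list summed to 7206 to 9129 FPKM in the knock-in and 7035 to 8243 FPKM in the wild type, and only Lyz2 and Cd14 of its 7 genes reached a mean of 1 FPKM. The erythroid list summed to 24543 to 178231 FPKM in the knock-in and 37406 to 92506 FPKM in the wild type, in some libraries above the platelet sum. Haemoglobin mRNA made up 3.20% to 20.4% of total FPKM in knock-in libraries and 5.71% to 12.8% in wild-type libraries, and was highest in replicate 1 of each group. Depth is not given with FPKM. The commonest low value among genes with 1 annotated transcript, taken as the worth of 1 fragment, gave roughly 7820000 to 9380000 fragments per knock-in library and 8750000 to 9290000 per wild-type library.

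The platelet Rab repertoire was dominated by a few genes. Summed over all 59 members, Rab mRNA came to 1565 to 1747 FPKM in knock-in libraries and 1598 to 1707 FPKM in wild-type libraries, so the family totals overlapped. As a share of total FPKM this was 0.183% to 0.224% in the knock-in and 0.241% to 0.255% in the wild type, with total FPKM itself higher in all knock-in libraries (758381 to 856863 FPKM) than in all wild-type libraries (641278 to 708432 FPKM). The 10 genes with the highest means held 79.5% to 80.9% of the Rab sum in every library. They were Rab11a and Rab4b of recycling endosomes, Rab11b, Rab22a of early endosomes, the exocytic Rab10 and Rab8b, Rab6a and Rab1b of the Golgi region, the late endosomal Rab7 and the granule gene Rab27b.

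**Figure D1:**
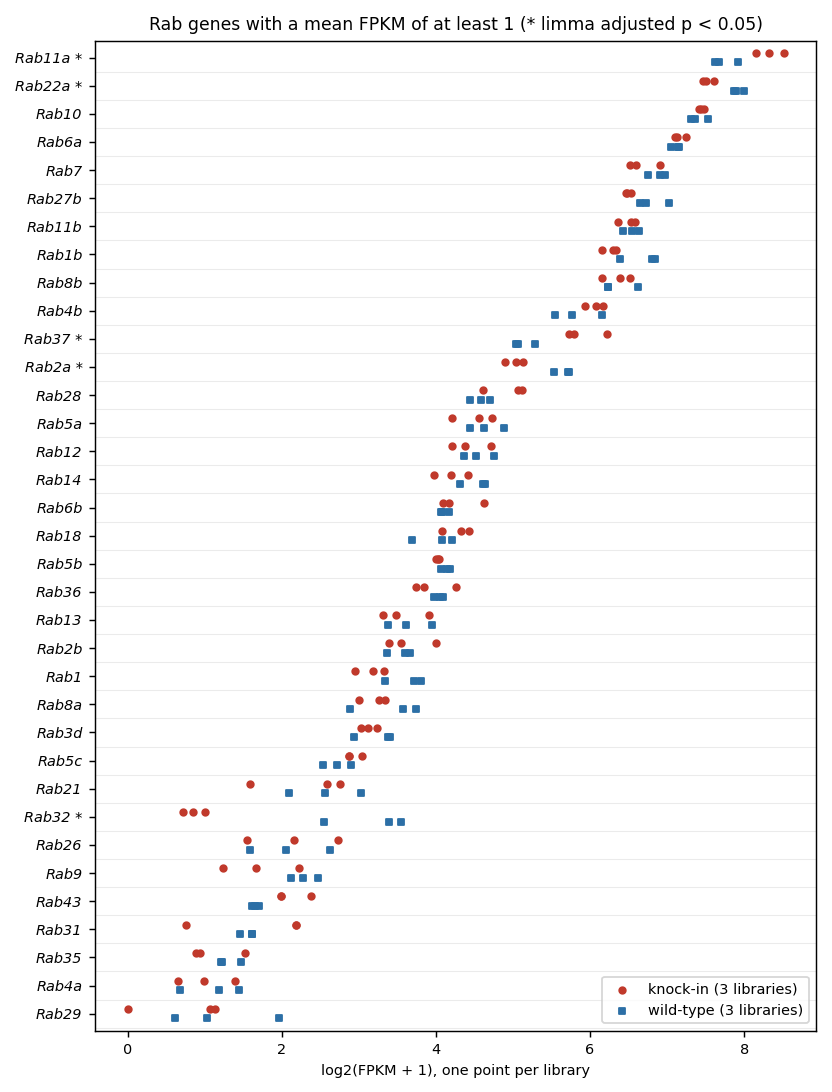
Levels of the 35 Rab genes with a mean of at least 1 FPKM, as log2(FPKM + 1), with 1 point per library, knock-in circles above wild-type squares and genes ordered by mean. Rab32 shows the widest gap between the groups, and most other genes overlap.

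Among the most abundant members the order differed between the genotypes at the top. Rab11a measured 284, 319 and 364 FPKM in knock-in libraries, all above Rab22a at 181, 176 and 195 FPKM. In wild-type libraries Rab22a measured 254, 233 and 236 FPKM and Rab11a 240, 196 and 204 FPKM, and those ranges overlapped. Rab11a thus made up 18.1% to 20.9% of the Rab sum in the knock-in and 12.3% to 14.1% in the wild type, while Rab22a made up 10.8% to 11.6% in the knock-in and 14.4% to 14.9% in the wild type. Rab10, a regulator of exocytic vesicle delivery, came next with 178, 173 and 169 FPKM in the knock-in and 185, 158 and 163 FPKM in the wild type. Rab6a, which acts in retrograde transport at the Golgi, had 138, 136 and 150 FPKM in the knock-in and 141, 140 and 131 FPKM in the wild type, below every Rab10 value in each group. Below them, Rab7, Rab27b, Rab11b, Rab1b and Rab8b had means between 81.4 and 109 FPKM in the order given. Rab7 lay below Rab6a in every library of each group. In the wild type the lowest Rab27b value, 99.6 FPKM, was above the highest Rab11b value, 98.6 FPKM, and in the knock-in the lowest Rab11b value, 81.4 FPKM, was above the highest Rab1b value, 79.7 FPKM. The other neighbours among these 5 overlapped within each group, as did those pairs in the other genotype.

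A total of 24 members lay under the filter of 1 FPKM. The values just inside it were 1.12 FPKM for both Rab4a and Rab29, and the value just outside was 0.896 FPKM for Rab24. Of the 24, 13 were above 0 in at least 1 library, and 11 were listed at 0 in all 6: Rab3b, Rab3c, Rab9b, Rab15, Rab17, Rab19, Rab20, Rab23, Rab25, Rab42 and Rab44. A listed 0 can be a failed estimate and is not a measured absence. The epithelial genes Rab17 and Rab25 and the neuronal exocytosis genes Rab3b and Rab3c are in that group.

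Of the 35 tested members, 5 differed between the genotypes: Rab32, Rab2a and Rab22a fell and Rab11a and Rab37 rose in the knock-in (limma, Benjamini-Hochberg adjusted p under 0.05 over all genes tested). That is 14.3% of the tested members, where 8.36% of all 4859 tested genes were called, 4.36% higher and 3.99% lower in the knock-in. Rab32 averaged 0.815 FPKM in the knock-in and 8.32 FPKM in the wild type. It thus entered the tested set, and these counts, only through its wild-type values. The median log2 fold change of the 35 was -0.09, and that of all tested genes was -0.01. Of the 35, 22 lay below 0 and 13 above. Groups did not overlap for 10 of the 35, against 30.7% of all tested genes, and 7 of them were lower and 3 higher in the knock-in, against 15.8% and 14.9% of all tested genes. A limit of 2-fold by group mean of FPKM + 1, the fold limit of the study's design text, was passed by 1 of the 35, Rab32, and by 3.11% of all tested genes. In bulk platelet RNA, fewer platelets with a transcript and less of it per platelet cannot be told apart.

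**Figure D2:**
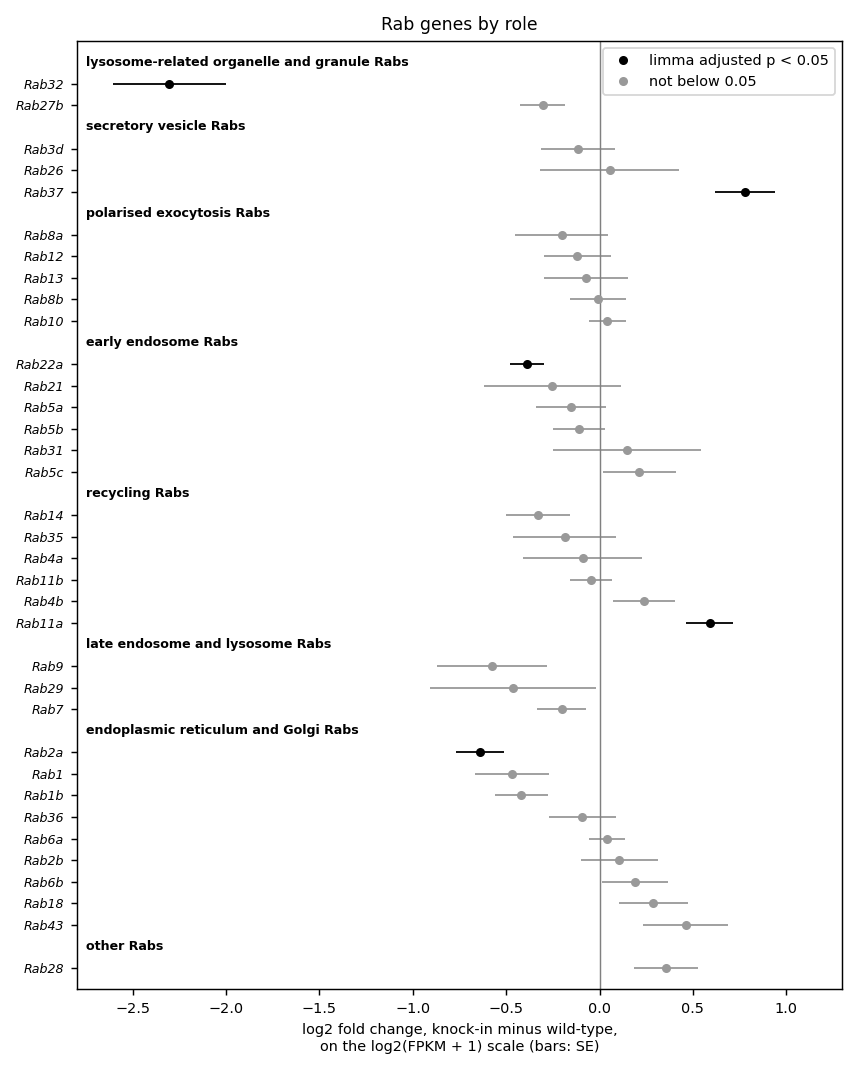
Log2 fold change (knock-in minus wild-type, on the log2(FPKM + 1) scale) with its SE for each of the 35 tested Rab genes, grouped by the membranes on which the proteins act. Rab32 at -2.30 lies far from the other members, which span -0.64 to 0.78.

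Rab32, which with its relative Rab38 directs enzymes and transporters to lysosome-related organelles, fell in the knock-in. It measured 0.637, 1.01 and 0.799 FPKM in knock-in libraries, against 4.83, 9.48 and 10.7 FPKM in wild-type libraries. The highest knock-in value, 1.01 FPKM, lay far below the lowest wild-type value, 4.83 FPKM. The means were 0.815 ± 0.187 FPKM in the knock-in and 8.32 ± 3.08 FPKM in the wild type (SD, n = 3 each), and the log2 fold change was -2.30 with an SE of 0.30, at a limma adjusted p of 0.00794. At the estimated worth of a fragment and its annotated transcript of 2149 bases, this came to roughly 10.7 to 18.8 fragments per knock-in library and 90.8 to 209 per wild-type library. The size depended on the pseudocount: the log2 fold change was -3.15 with 0.1 FPKM and -1.17 with 5 FPKM added. The gene Rab32 spans bases 10545002 to 10558265 on the minus strand of chromosome 10 (GRCm38), and its exons overlap no other annotated gene.

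The other granule members were mostly Rab27b. Rab27b, the Rab of dense granule release, measured 88.1, 91.8 and 87.4 FPKM in the knock-in and 129, 104 and 99.6 FPKM in the wild type. The groups did not overlap, with all knock-in values lower, but the log2 fold change of -0.30 (SE 0.12) missed the threshold, at a limma adjusted p of 0.163. Rab27a, whose loss causes pigment and immune granule defects in mice, was near the bottom of the range, with 0.331, 0.0365 and 0.727 FPKM in the knock-in and 0, 0.104 and 0.179 FPKM in the wild type. Rab38 was listed at 0 in 5 of 6 libraries and at 0.429 FPKM in knock-in replicate 1. Neither Rab27a nor Rab38 reached the level for testing, so Rab32 was the main expressed member of the Rab32 and Rab38 pair and Rab27b of the Rab27 pair.

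**Figure D3:**
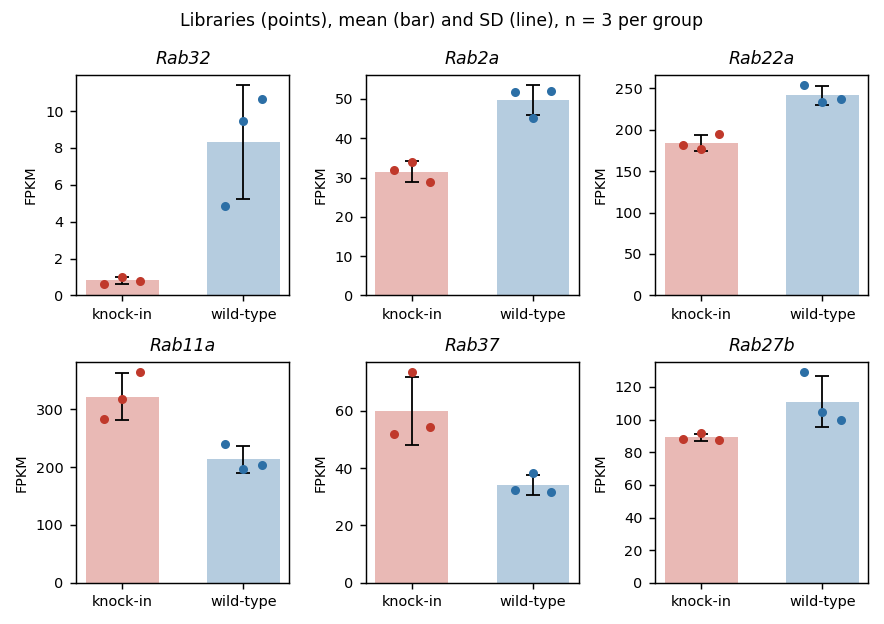
FPKM of the 5 Rab genes that passed the test and of Rab27b, with 1 point per library, bars for the mean and lines for the SD (n = 3 per group), knock-in on the left. The groups do not overlap in any of the 6 panels.

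Of the secretory vesicle genes, Rab37 rose. Rab37, which acts in regulated secretion in mast cells and other secretory cells, measured 51.8, 73.4 and 54.4 FPKM in the knock-in, against 32.4, 38.1 and 31.8 FPKM in the wild type. All knock-in values were above all wild-type values, and the log2 fold change was 0.78 with an SE of 0.16, at a limma adjusted p of 0.0238. Its close relative Rab26 averaged 3.66 ± 1.85 FPKM in the knock-in and 3.43 ± 1.59 FPKM in the wild type, and Rab3d, a granule Rab of exocrine cells, averaged 7.71 ± 0.628 FPKM in the knock-in and 8.54 ± 1.67 FPKM in the wild type (SD, n = 3 each). Neither passed (limma adjusted p = 0.949 and 0.772). The gene Rab37 spans bases 115091431 to 115162236 on the plus strand of chromosome 11 (GRCm38).

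Genes of polarised exocytosis gave no call. The 5 tested members had log2 fold changes between -0.20 and 0.04, and 0 passed (0 also at an unadjusted limma p under 0.05). With 8.36% of all tested genes called and 25.4% at an unadjusted limma p under 0.05, 0 of 5 says little about these genes. Rab8b, which delivers vesicles to the plasma membrane, measured 70.3, 90.3 and 82.4 FPKM in the knock-in and 97.4, 74.0 and 74.2 FPKM in the wild type. Its groups overlapped, as did those of Rab10. The others were Rab8a, Rab12 and Rab13, with means of 9.03 to 21.7 FPKM.

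Among early endosome genes Rab22a fell, by 0.39 on the log2 scale (SE 0.09, limma adjusted p = 0.0379). Its means were 184 ± 9.73 FPKM in the knock-in and 241 ± 11 FPKM in the wild type (SD, n = 3 each), which is 1.31-fold lower. The groups did not overlap, since the highest knock-in value was 195 FPKM and the lowest wild-type value 233 FPKM. Rab5b, of the Rab5 family that governs early endosome fusion, was the least variable tested member, with a pooled SD of 0.0422 on the log2 scale. It averaged 15.2 ± 0.252 FPKM in the knock-in and 16.5 ± 0.665 FPKM in the wild type (SD, n = 3 each), and although the groups did not overlap it missed the threshold (a log2 difference of -0.11, limma adjusted p = 0.675). Rab5a, Rab5c, Rab21 and Rab31 did not pass either and overlapped between the groups. The gene Rab22a spans bases 173659760 to 173707343 on the plus strand of chromosome 2 (GRCm38), and its exons overlap the microRNA gene Mir6340 on the opposite strand.

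Recycling Rab genes were led by Rab11a, which controls return from recycling endosomes to the surface and which rose in the knock-in. Its means were 322 ± 40.2 FPKM in the knock-in and 214 ± 23.5 FPKM in the wild type (SD, n = 3 each), a log2 fold change of 0.59 (SE 0.12, limma adjusted p = 0.0256) or 1.505-fold. All knock-in values were above all wild-type values. Rab11b, whose coding sequence is 75.2% identical to that of Rab11a, measured 81.4, 91.4 and 94.8 FPKM in the knock-in and 92.7, 84.8 and 98.6 FPKM in the wild type. It missed the threshold (log2 fold change -0.04, SE 0.11, limma adjusted p = 0.857). By group means, Rab11a made up 78.3% of the Rab11 pair in the knock-in and 69.9% in the wild type. Rab4b, of the Rab4 pair known for rapid recycling and, in human platelets, for alpha granule release, measured 66.3, 60.4 and 71.1 FPKM in the knock-in and 45.8, 53.4 and 70.4 FPKM in the wild type. Several abundant members share exonic bases with genes on either strand: Rab10 with Rab10os, Rab6a with Mrpl48, Rab7 with Gm5577, Rab11b with Gm17251, and Rab4b with Gm21983 and Mir3101. The kits do not mark strand, so reads of opposite-strand partners cannot be told apart. The Rab4b groups overlapped, and the log2 fold change of 0.24 missed the threshold (limma adjusted p = 0.425). Rab14, Rab35 and Rab4a had log2 fold changes of -0.33, -0.19 and -0.09, none of which passed. The gene Rab11a spans bases 64715299 to 64737758 on the minus strand of chromosome 9 (GRCm38), and shares exonic sequence with the annotated gene Gm47308 on the same strand.

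Late endosome and lysosome genes had 3 tested members, with 0 calls (0 at an unadjusted limma p under 0.05) and log2 fold changes all below 0. Of all tested genes, 8.36% were called and 25.4% had an unadjusted limma p under 0.05, so 0 of 3 says little. Rab7, which drives maturation of late endosomes, measured 90.3, 96.0 and 120 FPKM in the knock-in and 107, 119 and 125 FPKM in the wild type, and the groups overlapped (log2 fold change -0.20, limma adjusted p = 0.390). Rab9, of transport from late endosomes to the Golgi, had the fifth largest difference of the family. It measured 2.18, 3.67 and 1.35 FPKM in the knock-in and 4.51, 3.32 and 3.84 FPKM in the wild type, a log2 fold change of -0.58 that missed the threshold (SE 0.29, limma adjusted p = 0.267). Rab29 was the most variable tested member, with a pooled SD of 0.665 on the log2 scale. It averaged 0.763 FPKM in the knock-in and 1.48 FPKM in the wild type, so only its wild-type values brought it past the filter. Rab24, just under the filter and not tested, lay in the other direction with overlapping groups. It averaged 1.13 ± 0.372 FPKM in the knock-in and 0.665 ± 0.414 FPKM in the wild type (SD, n = 3 each).

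Of 9 tested genes of the endoplasmic reticulum and Golgi, Rab2a fell. Rab2a, which acts between the endoplasmic reticulum and the Golgi, measured 31.97, 33.91 and 28.75 FPKM in the knock-in, against 51.7, 45.3 and 52.2 FPKM in the wild type. No values overlapped, and the log2 fold change was -0.64 with an SE of 0.13, at a limma adjusted p of 0.0212, or 1.56-fold lower. Its relative Rab2b averaged 11.7 ± 2.94 FPKM in the knock-in and 10.7 ± 1.21 FPKM in the wild type (SD, n = 3 each), with overlapping groups. Rab1b and Rab1, which act in the first step of export to the Golgi, were both lower without overlap and did not pass. Rab1b measured 77.3, 70.2 and 79.7 FPKM in the knock-in and 82.8, 114 and 110 FPKM in the wild type, with a log2 fold change of -0.42 (SE 0.14, limma adjusted p = 0.109). It passed without wild-type replicate 1 (-0.56, limma adjusted p = 0.0318) and without both libraries highest in haemoglobin (-0.58, limma adjusted p = 0.0165). Both settings leave out wild-type replicate 1, the lowest wild-type value, and Rab1b was not called in the other 17 of 19 alternatives. Rab1 averaged 7.93 ± 1.14 FPKM in the knock-in and 11.4 ± 1.98 FPKM in the wild type (SD, n = 3 each; limma adjusted p = 0.184). Rab43, also without overlap, was higher at 3.37 ± 0.723 FPKM in the knock-in and 2.15 ± 0.0973 FPKM in the wild type (SD, n = 3 each; limma adjusted p = 0.254). The gene Rab2a spans bases 8535644 to 8607778 on the plus strand of chromosome 4 (GRCm38).

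Within these related pairs, 1 member held most of the mRNA in both genotypes. Group means gave Rab22a 98.6% of the Rab22a and Rab31 sum in the knock-in and 99.2% in the wild type. Rab6a had 88.2% of the Rab6 pair in the knock-in and 89.5% in the wild type, and Rab4a had 1.58% of the Rab4 pair in the knock-in and 2.07% in the wild type. Rab1 held 9.48% of the Rab1 pair in the knock-in and 9.999% in the wild type, and Rab8a held 9.19% of the Rab8 pair in the knock-in and 10.8% in the wild type. Rab2a held 72.9% of the Rab2 pair in the knock-in and 82.3% in the wild type. Some other pairs compared were more even. Rab5a held 58.9% of the Rab5a and Rab5b sum in the knock-in and 59.5% in the wild type. Rab8a held 42.6% of the Rab8a and Rab13 sum in the knock-in and 45.9% in the wild type.

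Genes that act on or with Rab proteins were lower in the knock-in more often than higher, but few passed. The lists covered GEFs, GAPs, prenylation and recycling factors, effectors and lysosome-related organelle factors, with 153 genes, of which 64 were tested. Of these 64, 2 fell and 1 rose, which is 4.69% called against 8.36% of all tested genes. The median log2 fold change was -0.32, with 49 below 0 and 15 above. Over all tested genes the median was -0.01, with 2503 below 0 and 2356 above. Of the 49, Eea1, Rbsn, Rab3gap1, Tbc1d5 and Sbf1 passed the filter of 1 FPKM only through their wild-type values. The rest of the 49 averaged above 1 FPKM in both genotypes. How far the filter shapes this split was not tested. Groups did not overlap for 20 that were lower (15.8% of all tested genes were lower without overlap) and 3 that were higher (14.9%). An unadjusted limma p under 0.05 was reached by 16 of the 64, and by 25.4% of all tested genes.

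**Figure D4:**
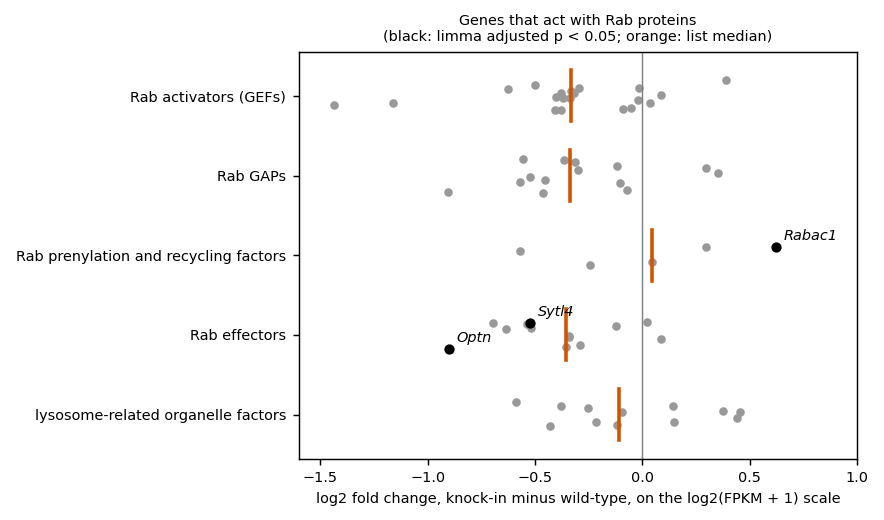
Log2 fold change (knock-in minus wild-type, on the log2(FPKM + 1) scale) of the 64 tested genes that act with Rab proteins, by list, with list medians in orange. Of the 64, only Optn, Sytl4 and Rabac1 passed the test, and the medians of the GEF, GAP and effector lists lie between -0.35 and -0.33.

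Both effector genes that fell bind Rab proteins described above. Sytl4, which encodes granuphilin, an effector of Rab27 and Rab3 on secretory granules, measured 178, 190 and 196 FPKM in the knock-in, against 272, 269 and 270 FPKM in the wild type. The wild-type values were nearly identical and all above the knock-in, and the log2 fold change was -0.52 with an SE of 0.09, at a limma adjusted p of 0.0122. Optn, which encodes optineurin, a Rab8 effector and autophagy receptor, measured 44.7, 48.8 and 35.1 FPKM in the knock-in, against 86.1, 79.7 and 74.7 FPKM in the wild type. The groups were far apart, with a log2 fold change of -0.90 (SE 0.15, limma adjusted p = 0.0110). Exons of Optn overlap those of 4930551O13Rik on the opposite strand, and the kits do not mark strand. The other Rab27 effectors gave less. Unc13d, the vesicle priming factor Munc13-4 of dense granules, measured 50.6, 59.1 and 68.1 FPKM in the knock-in and 68.3, 77.7 and 70.8 FPKM in the wild type, which did not overlap by a narrow margin and missed the threshold (a log2 difference of -0.29, limma adjusted p = 0.227). Sytl1, Sytl3 and Sytl5 had at most 0.290 FPKM in any library and Sytl2 was listed at 0.

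The gene that rose was Rabac1, which encodes the prenylated Rab acceptor, a membrane protein that takes up lipid-bearing Rab proteins. It measured 304, 378 and 367 FPKM in the knock-in, against 242, 226 and 209 FPKM in the wild type, and was the most abundant gene of these lists. The log2 fold change was 0.63 with an SE of 0.11, at a limma adjusted p of 0.0153, and no values overlapped. Gdi2, which encodes a factor that extracts Rab proteins from membranes, averaged 103 ± 15 FPKM in the knock-in and 99.6 ± 10.8 FPKM in the wild type (SD, n = 3 each), with overlapping groups (limma adjusted p = 0.878).

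The GEF of Rab32 and Rab38 is the complex BLOC-3, known from human and mouse cells, whose subunits are Hps1 and Hps4. Hps4 measured 2.90, 0.0393 and 0.410 FPKM in the knock-in and 1.97, 4.55 and 5.89 FPKM in the wild type. The groups overlapped through the lowest wild-type and the highest knock-in value, and the log2 fold change of -1.44 missed the threshold (SE 0.52, limma adjusted p = 0.126). It passed without knock-in replicate 1 (-2.0, limma adjusted p = 0.0173), with sample weights (-1.74, 0.0402) and without both libraries highest in haemoglobin (-2.35, 0.00595). The first and last of these settings leave out knock-in replicate 1, which held the highest Hps4 value of its group. In the other 15 of its 18 alternatives Hps4 was not called. Hps1 measured 2.03, 1.51 and 1.85 FPKM in the knock-in and 1.83, 3.63 and 2.83 FPKM in the wild type (log2 fold change -0.40, limma adjusted p = 0.393). Ankrd27, an effector of Rab32 and Rab38 and a GEF for Rab21, averaged 1.53 ± 0.819 FPKM in the knock-in and 1.41 ± 0.449 FPKM in the wild type (SD, n = 3 each; limma adjusted p = 0.960). The lists of GEFs and GAPs had 0 calls among 20 and 14 tested genes, with 4 and 5 at an unadjusted limma p under 0.05. Lysosome-related organelle factors had 0 calls of 12 tested (2 unadjusted), with a median of -0.11 and 7 below 0. For all tested genes the shares were 8.36% called and 25.4% at an unadjusted limma p under 0.05.

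Haemoglobin content differed between libraries, as given above. With libraries rescaled leaving out erythroid genes and the 100 most abundant ones, all 5 genes passed, at limma adjusted p of 0.00875 for Rab32, 0.0171 for Rab2a, 0.0268 for Rab22a, 0.0335 for Rab37 and 0.0343 for Rab11a. With both libraries highest in haemoglobin left out, log2 fold changes were -2.54 for Rab32, -0.62 for Rab2a, 0.76 for Rab11a and 0.84 for Rab37, and these passed, while Rab22a at -0.34 did not (limma adjusted p = 0.0510). With a trend of change over transcript length removed, an alternative chosen after the data were seen, Rab22a at -0.30 did not pass (limma adjusted p = 0.116), and the other 4 did. Rab22a has the longest annotated transcript of the 5, at 7155 bases, against 2133 to 2577 for the others. Optn, Sytl4 and Rabac1 also passed with that trend removed (limma adjusted p = 0.0156, 0.0339 and 0.0453). Their log2 fold changes were then -0.88, -0.46 and 0.49, each smaller in size than as reported. Medians of the regulator and effector lists under this setting are not given here.

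**Figure D5:**
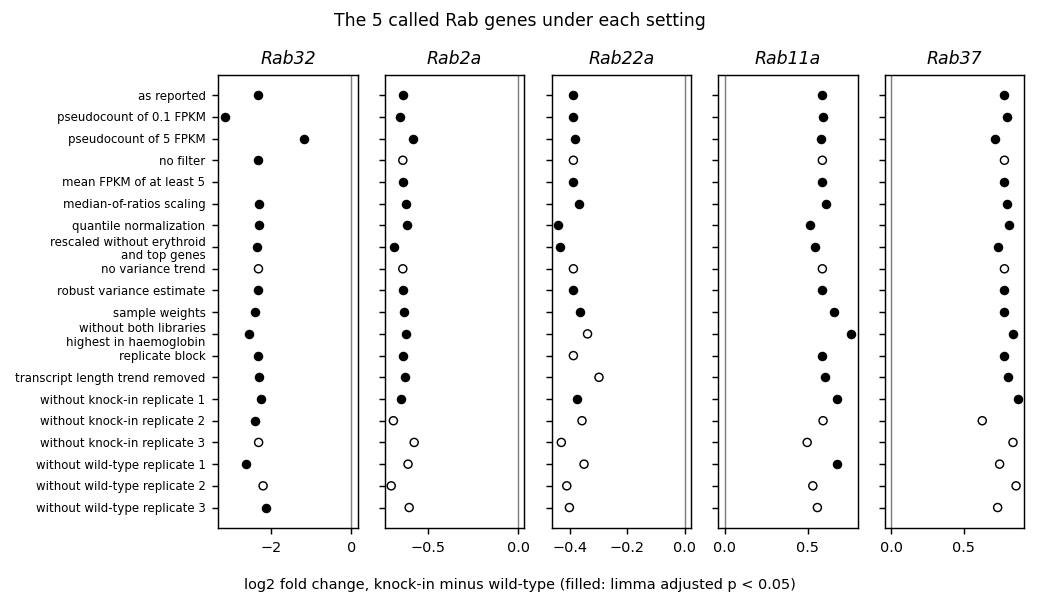
Log2 fold change (knock-in minus wild-type) of the 5 called Rab genes as reported and under 19 alternatives, filled where the limma adjusted p is under 0.05. None of the 5 changed sign, which most of these settings could not have brought about because the groups do not overlap. Rab32 has no value at a mean of at least 5 FPKM because its mean is lower.

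No Rab call held in every setting. Rab32 was not called without knock-in replicate 3 (limma adjusted p = 0.0554), without wild-type replicate 2 (0.0516) or without the variance trend (0.0623). Rab11a was not called without knock-in replicate 2 (limma adjusted p = 0.0903) or 3 (0.104), wild-type replicate 2 (0.109) or 3 (0.0987), a filter (0.0915) or the trend (0.0995). Rab2a and Rab37 lost their calls without knock-in replicate 2 or 3 or any single wild-type library, at limma adjusted p of 0.0524 to 0.0889 for Rab2a and 0.0600 to 0.0934 for Rab37. Without a filter they had 0.0570 and 0.0838, and without the trend 0.0759 each. Rab22a was called among these settings only without knock-in replicate 1. Optn was not called without knock-in replicate 3 (limma adjusted p = 0.0554), wild-type replicate 2 (0.0585) or the trend (0.0651). Sytl4 and Rabac1 were not called without knock-in replicate 2 or 3 or wild-type replicate 2 or 3, at limma adjusted p of 0.0563 to 0.0780, or without the trend (0.0813 and 0.0807), nor Rabac1 without a filter (0.0620).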

How the data were processed

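RNA of 6 mouse platelet libraries was sequenced, and the libraries were grouped and numbered from their titles, 3 per group. Per the labels' protocols, a miRNeasy Micro kit followed TRIzol, and libraries came from SMART-Seq HT and Nextera XT, kits that do not mark strand. The authors deposited FPKM per gene symbol, 1 table per library. The submitters' processing notes name the genome mm10 and the tools Cuffdiff 2.2.1, TopHat2 2.1.1, SAMtools 0.1.18 and Bowtie2 2.2.8. Settings and annotation are not given in the sources used here.

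The 4859 symbols with a mean of at least 1 FPKM were tested two-sided on log2(FPKM + 1) in limma 3.58.1 (R 4.3.3). The model held genotype alone, used a variance trend and adjusted p over all genes tested by Benjamini-Hochberg at 0.05. Fold changes on that scale understate those of low genes. With 3 against 3, an exact test of 1 value cannot go below 0.1. On simulated data for this comparison with 4859 genes, 90% of 100 genes changed by 2 on the log2 scale and 56% of 100 changed by 1 were recovered, and 6 of 4659 unchanged genes were called. Changes were placed only in genes with a mean log2(FPKM + 1) above 2, so recovery of lower genes was not measured. Changes smaller than 1, such as those of every called gene named here except Rab32, were not simulated either. Noise was drawn independently for each value, without shifts shared by a library.

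Every library's value is given for members past the threshold, the 10 highest means, Rab27a, Rab27b, Rab32, Rab38 and the 5 largest changes. Of the other lists, called genes and the known partners of Rab27, Rab32 and Rab38 are named, and Gdi2 was chosen after its values were seen. Members and lists were chosen with earlier results of these data known. Alternatives were the pseudocount, the filter, scaling, the variance model, sample weights, a block and left-out libraries. Coding sequences were aligned with Biopython 1.88.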

Additional observations from a re-analysis of the deposited data

How the results depend on the processing

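The 5 Rab genes called became 1 with no filter and 0 without the variance trend, with 8 at an unadjusted limma p under 0.05 in the latter, and 0 to 5 with 1 library left out, the 0 without knock-in replicate 3 (8 unadjusted) or wild-type replicate 2 (6). The 3 regulators and effectors called became 7 with sample weights, 6 at a mean of at least 5 FPKM, 5 with robust variance, 8 without both libraries highest in haemoglobin, 0 without the trend (18 unadjusted) and 0 to 7 with 1 library left out, the 0 again without knock-in replicate 3 (15) or wild-type replicate 2 (10). The 406 genes called in all became 107 with no filter, 678 without both libraries highest in haemoglobin, 0 without the trend (1197 unadjusted) and 0 to 589 with 1 library left out, the 0 without knock-in replicate 3 (1002 unadjusted). The median log2 fold change of Rab genes was -0.09 and became -0.024 with no filter and -0.092 to -0.038 with 1 library left out. With the replicate block 4 Rab genes were called, Rab22a having an adjusted p of 0.0759, and 306 genes in all. The labels do not say that a number pairs libraries. Deviations of same-numbered libraries correlated at 0.158, 0.0235 and 0.141, and knock-in replicate 2 correlated best with wild-type replicate 3.

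Called members kept their direction in all 19 alternatives, except that Rab32 has no value at a mean of at least 5 FPKM. Since their groups did not overlap, left-out libraries, other pseudocounts and sample weights could not have reversed the sign. Filters, the variance models and the block left the fold change as it was. Only the scaling settings and the removed length trend could have reversed it. Among members that were not called, signs changed near 0. Rab8b (-0.01) became 0.0098 with median-of-ratios scaling, 0.018 with quantile normalization, 0.068 with sample weights, 0.22 without both libraries highest in haemoglobin, 0.075 with the length trend removed and -0.092 to 0.12 with 1 library left out. Rab11b (-0.04) became 0.026 without both libraries, 0.049 with the length trend removed and -0.10 to 0.019 with 1 left out. Rab10 and Rab6a (0.04 each) became -0.0054 and -0.0062 when libraries were rescaled leaving out erythroid and the most abundant genes, and ranged from -0.0016 to 0.11 and from -0.0022 to 0.068 with 1 left out. Ankrd27 (0.04) ranged from -0.20 to 0.26 with 1 left out. The cause of these moves was not tested. Under 5 FPKM, as for Rab32 in the knock-in, few fragments limit precision.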

Other observations

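Itgb3, the gene that carries the knock-in, lies on chromosome 11, as do 5 Rab genes. Rab5c lies 3.91 Mb from it, Rab37 10.5 Mb, Rab40b 16.7 Mb, Rab34 26.4 Mb and Rab1 84.4 Mb (GRCm38). Rab37 is the only one of the 5 that passed the test, and Rab34 and Rab40b were below 1 FPKM and not tested. Within 20 Mb of Itgb3, 11 of 172 tested genes (6.395%) were called by limma, 6 higher and 5 lower in the knock-in. On the rest of chromosome 11, 18 of 226 (7.96%) were called, and on other chromosomes 364 of 4296 (8.47%).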
